A study of Mus musculus with 6 samples.

Results

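NF-κB is among the first transcription factors that RANKL activates in an osteoclast precursor. The 10 genes described here encode some of its subunits and proteins that regulate it, most of them by holding it back. They are the subunit genes *Rel*, *Rela*, *Relb* and *Nfkb2*, the inhibitor genes *Nfkbia*, *Nfkbib* and *Nfkbie*, the nuclear IκB genes *Bcl3* and *Nfkbiz*, and *Tnfaip3*, which encodes the ubiquitin-editing protein A20. The subunit gene *Nfkb1* is not among them. A gene entered through its brightest probe set that the platform annotation pairs with 1 symbol, and each of the 10 genes had 1 such probe set, of 19938 genes measured in this way. The genes were chosen by name, with earlier results of these data known.

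The cells were mouse bone marrow-derived macrophages (BMMs), grown with M-CSF from marrow of the tibiae. The sample records give the mice as 9 weeks old, and the methods give a range of ages that ends at 9 weeks. Both groups were then kept for 24 h with RANKL at 50 ng ml−1 besides M-CSF at 100 ng ml−1, so RANKL was present throughout and no array shows BMMs before RANKL. One group of 3 samples had vehicle ("RANKL alone") and the other group of 3 samples had 100 ng ml−1 recombinant GDF11 ("RANKL with rGDF11"), the TGF-β family ligand whose effect the study set out to measure. The labels call the samples biological replicates without saying whether separate mice or cultures gave them, and the p-values therefore reflect only how far these samples vary. Expression was read on Affymetrix Mouse Gene 1.0 ST arrays, and all levels below are log2 values normalized by the robust multichip average (RMA).

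In resting cells NF-κB dimers are kept in the cytoplasm by IκB proteins. Signals from RANK, TNF receptors or Toll-like receptors activate the IκB kinase (IKK) complex, which marks IκB for destruction and frees dimers that hold RelA or c-Rel. In a slower, alternative route the kinase NIK drives the processing of the *Nfkb2* product p100 to p52, which enters the nucleus with RelB. Several inhibitors, IκBα and A20 among them, are encoded by genes that NF-κB itself switches on, and both routes take part in osteoclast formation. The arrays measured RNA and thus show neither the destruction of IκB nor the position of NF-κB in the cell.

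Genes of NF-κB subunits and inhibitors are themselves known targets of NF-κB, so the promoters that carry its letters are shown. Promoter windows of 250 bases before to 50 bases after a gene's start, taken from RefSeq on the mouse build GRCm38.p6, were found for 8 of the 10 genes, with 11 windows in all, and none was found for *Relb* and *Nfkbiz*. The κB letters searched were GGG, any 3 bases and then TTCC, on either strand, so that on the gene's own strand they can also read GGAA, any 3 bases and then CCC. They occurred in 5 of the 8 genes, *Rel*, *Nfkb2*, *Nfkbia*, *Nfkbie* and *Tnfaip3*. The same letters occurred in 5.56% of 32851 windows and in 6.31% of 27025 genes of the whole table. In the stretches below, each 150 bases long and on the gene's own strand, capitals mark the κB letters.

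*Rel* (chr11:23770970-23771119, minus strand): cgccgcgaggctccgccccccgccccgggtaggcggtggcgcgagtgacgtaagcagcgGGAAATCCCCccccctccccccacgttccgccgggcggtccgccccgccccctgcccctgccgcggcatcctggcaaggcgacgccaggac
*Nfkb2* (chr19:46304587-46304736, plus strand): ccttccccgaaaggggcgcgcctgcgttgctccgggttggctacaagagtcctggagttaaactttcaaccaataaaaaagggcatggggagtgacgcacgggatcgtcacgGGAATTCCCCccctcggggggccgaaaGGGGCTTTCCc
*Nfkbia* (chr12:55492648-55492797, minus strand): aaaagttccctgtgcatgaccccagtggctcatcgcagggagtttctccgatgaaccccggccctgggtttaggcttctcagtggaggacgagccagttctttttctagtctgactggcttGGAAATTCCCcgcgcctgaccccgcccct
*Nfkbie* (chr17:45555531-45555680, plus strand): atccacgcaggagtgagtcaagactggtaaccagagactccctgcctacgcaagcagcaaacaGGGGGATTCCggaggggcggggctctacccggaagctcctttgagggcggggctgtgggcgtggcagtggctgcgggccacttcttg
*Tnfaip3* (chr10:19015411-19015560, minus strand): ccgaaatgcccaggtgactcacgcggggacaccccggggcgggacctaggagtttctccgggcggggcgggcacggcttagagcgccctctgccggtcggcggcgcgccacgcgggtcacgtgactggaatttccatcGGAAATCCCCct

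The κB letters began 91 bases before the start of *Rel*, 29 before *Nfkbia*, 106 before *Nfkbie* and 12 before the first listed start of *Tnfaip3*, and *Nfkb2* held them at 38 and 11 bases before its first listed start. Outside the stretches shown, *Tnfaip3* held them 33 bases after its first listed start and 90 before a further one. The windows at further listed starts of *Nfkb2* held them too. The windows of *Rela*, *Nfkbib* and *Bcl3* did not hold these letters, which says nothing of NF-κB binding there. The AP-1 letters TGANTCA, which read the same on both strands, occurred in windows of *Nfkb2*, *Nfkbie* and *Tnfaip3*, against 7.81% of all windows and 8.97% of all genes. The Smad letters CAGACA, searched on both strands, occurred only in *Bcl3* among the 8 genes, against 21.0% of all windows and 23.6% of all genes. The stretch of *Bcl3* is shown because it holds them at 2 places, 221 and 185 bases before the start, marked in capitals.

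*Bcl3* (chr7:19822856-19823005, minus strand): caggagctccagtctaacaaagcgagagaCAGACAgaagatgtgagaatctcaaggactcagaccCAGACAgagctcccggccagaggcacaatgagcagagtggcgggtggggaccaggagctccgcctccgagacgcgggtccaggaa

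Of the 10 genes, 1, *Nfkbiz*, was higher with rGDF11 and 0 were lower (limma, adjusted p under 0.05, Benjamini-Hochberg adjustment over 23410 probe sets). At an unadjusted p under 0.05, 2 genes were higher and 1 was lower, against 13.6% and 13.7% of all probe sets. By the methods' t-test with the same adjustment the counts were again 1 and 0. At the adjusted threshold 7.31% of all probe sets were called higher and 8.64% lower, so the share of these 10 genes called was not far from the background. The median log2 fold change was 0.02 for the 10 genes and 0.03 for all 19938 genes. The 95% confidence interval of the change lay within 1.5-fold in either direction for 9 of the 10 genes, all but *Nfkbiz*, and for 88.0% of all genes. The groups did not overlap for 4 of the 10 genes, *Nfkbiz*, *Rel*, *Nfkbie* and *Nfkbia*, against 32.9% of all probe sets. For such a gene an exact permutation test gives p = 0.1, and with 3 arrays in each group no smaller value can be had.

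**Figure D1:**
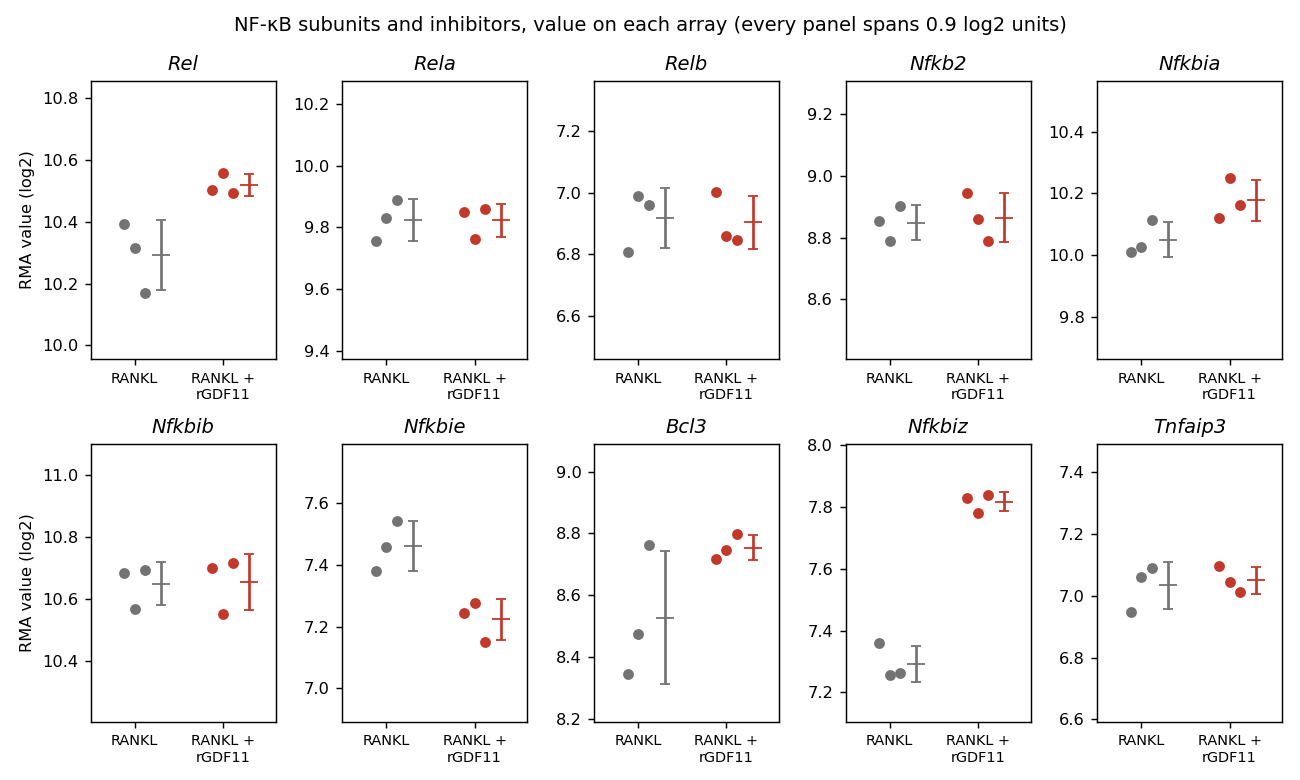
RMA value (log2, vertical axis) of each gene on every array, in BMMs with RANKL alone (grey) and RANKL with rGDF11 (red), with the mean and SD of 3 arrays beside the points. All panels span the same range of log2 units; the groups stand furthest apart for *Nfkbiz*, at 7.26 to 7.36 against 7.78 to 7.84, while *Rela*, *Relb*, *Nfkb2*, *Nfkbib* and *Tnfaip3* overlap widely.

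*Nfkbiz* encodes IκBζ, a nuclear IκB protein that, unlike its cytoplasmic relatives, helps NF-κB switch on a set of secondary response genes. Its log2 value was 7.36, 7.26 and 7.26 on the arrays with RANKL alone and 7.83, 7.78 and 7.84 with rGDF11. The lowest array with rGDF11 lay 0.42 above the highest with RANKL alone. Its level rose 1.44-fold, from 7.29 ± 0.058 to 7.82 ± 0.031 (mean ± SD, 3 arrays each; limma adjusted p = 0.00101), with a 95% interval of 130% to 159% of the level with RANKL alone. The change was larger than that of 93.6% of all genes, but it stayed below the fold change of 1.5 that the methods require. The methods also require an unadjusted p under 0.01, which was taken here from limma. By these conditions together, the methods' threshold, none of the 10 genes was called, against 2.06% of probe sets higher and 2.96% lower.

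*Bcl3*, the other nuclear IκB gene, whose product binds p50 and p52 dimers, read 8.34, 8.47 and 8.76 with RANKL alone and 8.72, 8.75 and 8.80 with rGDF11. The groups overlapped because the third array with RANKL alone lay within the range of the rGDF11 arrays, and the SD was 0.21 with RANKL alone against 0.041 with rGDF11. The log2 fold change was 0.23 (95% interval −0.022 to 0.47; limma, adjusted p = 0.225). Without that array it was 0.34 (limma, adjusted p = 0.0369), and without the first array with RANKL alone 0.13 (limma, adjusted p = 0.441). Over the 15 other settings tried the adjusted p ran from 0.0369 to 0.441. Its promoter is the one among the 8 with the Smad letters, which 23.6% of all genes hold, and any part of them in its change was not tested. Within arrays, the change of *Nfkbiz* exceeded that of *Bcl3* by 0.30 on the log2 scale, without overlap between groups (exact permutation test, two-sided p = 0.1, adjusted p = 0.333 over 10 pairs of genes that share a role, chosen after the values were seen). With 3 arrays per group this p cannot fall below 0.1, so no pair given here or below could pass. The test therefore does not show that paired genes changed alike.

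Among the subunit genes described here, *Rel* was the only one whose groups did not overlap. *Rel* encodes c-Rel, the subunit most restricted to blood cells, and read 10.39, 10.31 and 10.17 with RANKL alone and 10.50, 10.56 and 10.49 with rGDF11. Its level with rGDF11 was 117% of that with RANKL alone (95% interval 104% to 132%), a log2 fold change of 0.22 that did not pass the adjustment (limma, unadjusted p = 0.0174, adjusted p = 0.0872). It passed when the spread was allowed to follow brightness (adjusted p = 0.00944) and among brighter probe sets alone (adjusted p = 0.0270), and over the 15 other settings the adjusted p ran up to 0.226.

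The other subunit genes described here showed no detectable difference. *Rela*, which encodes the main activating subunit p65, read 9.75 to 9.89 with RANKL alone and 9.76 to 9.86 with rGDF11, a log2 fold change of −0.0014 (95% interval −0.16 to 0.15; limma, adjusted p = 0.992). Only 0.692% of all genes had a smaller change. *Nfkb2* and *Relb* encode the partners of the alternative route. *Nfkb2* read 8.79 to 8.90 with RANKL alone and 8.79 to 8.95 with rGDF11 (log2 fold change 0.016, 95% interval −0.14 to 0.18; limma, adjusted p = 0.917), and *Relb* read 6.81 to 6.99 and 6.85 to 7.00 (−0.016, 95% interval −0.20 to 0.16; adjusted p = 0.929 from the same fit). For each of these 3 genes the range of one group overlapped most of the other, and the 3 intervals together ran from 87.3% to 113% of the level with RANKL alone. Within arrays, *Rel* exceeded *Rela* by 0.23, *Relb* by 0.24 and *Nfkb2* by 0.21 in its change (exact permutation test, two-sided p = 0.2, 0.2 and 0.1, adjusted p = 0.333 for each).

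**Figure D2:**
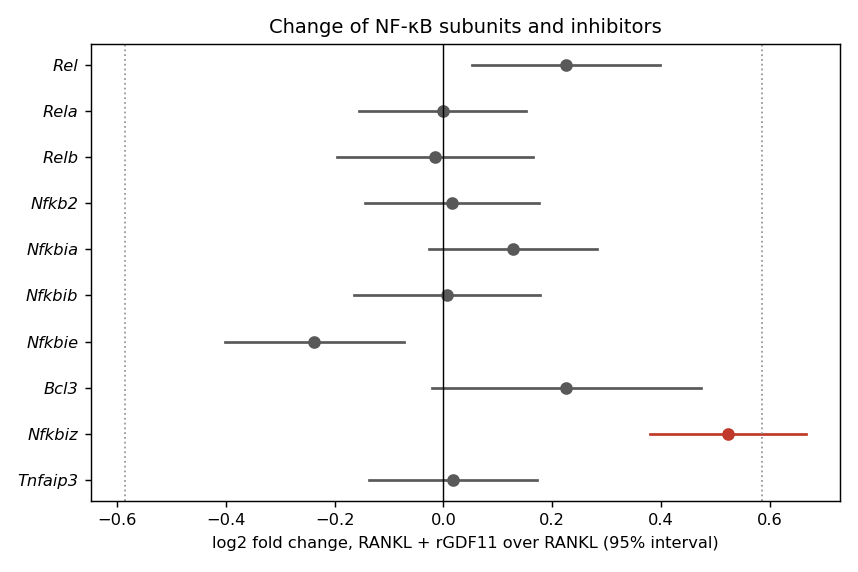
Log2 fold change (RANKL with rGDF11 over RANKL alone, horizontal axis) of the 10 genes with 95% confidence intervals from 3 arrays per group; red marks an adjusted p under 0.05 and dotted lines a fold change of 1.5. *Nfkbiz* at 0.52 is the only red point, *Nfkbie* lies lowest at −0.24, and 5 genes lie within 0.02 of 0.

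The 3 cytoplasmic inhibitors, which mask the nuclear localization signal of NF-κB dimers, did not share a direction, and none of them passed the test. *Nfkbie*, which encodes IκBε, read 7.38, 7.46 and 7.54 with RANKL alone and 7.24, 7.28 and 7.15 with rGDF11, so every array with rGDF11 was lower. Its level with rGDF11 was 84.8% of that with RANKL alone (95% interval 75.7% to 95.1%; limma, unadjusted p = 0.0106, adjusted p = 0.0616). The adjusted p was 0.0166 among brighter probe sets and 0.0453 after a further quantile normalization, and 0.0166 to 0.180 over the 15 other settings. *Nfkbia*, which encodes IκBα, the inhibitor that is degraded and remade fastest, read 10.01, 10.03 and 10.12 with RANKL alone and 10.12, 10.25 and 10.16 with rGDF11. The groups were separated by only 0.0048, and the log2 fold change was 0.13 (95% interval −0.026 to 0.28; limma, adjusted p = 0.272).

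*Nfkbib*, which encodes IκBβ, read 10.57 to 10.69 and 10.55 to 10.72, a log2 fold change of 0.0065 (95% interval −0.16 to 0.18; limma, adjusted p = 0.971). Within arrays, the change of *Nfkbie* lay 0.36 below that of *Nfkbia* (standard error 0.046), and the groups did not overlap in this difference (exact permutation test, two-sided p = 0.1, adjusted p = 0.333). *Nfkbia* and *Nfkbie* both hold the κB letters in their promoters, so genes with these letters lay on both sides of 0, though neither change passed the test. Of the 5 genes that hold them, none was called by limma, and their log2 fold changes ran from −0.24 for *Nfkbie* to 0.22 for *Rel*. With 16.6% of all genes called, so few genes cannot show a difference from the rest. *Nfkbiz*, the gene that was called, had no window and could not enter this count.

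*Tnfaip3* encodes A20, which removes the ubiquitin chains that carry the signal to IKK and is itself induced by NF-κB. It read 6.95, 7.06 and 7.09 with RANKL alone and 7.10, 7.04 and 7.01 with rGDF11, and the groups overlapped. The log2 fold change was 0.017 (95% interval −0.14 to 0.17; limma, adjusted p = 0.909), a change that 8.30% of all genes fell below in size. With *Rela*, *Relb*, *Nfkb2* and *Nfkbib*, it made 5 of the 10 genes with a log2 fold change of under 0.02 in either direction.

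The 10 genes differed in brightness, and all lay above the middle of the arrays. Mean levels ran from percentile 58.5 of all genes for *Relb* to percentile 95.3 for *Nfkbib*. Probe sets differ in how strongly they bind, so their levels do not rank the transcripts. The defining macrophage markers *Lyz2* (13.05 with RANKL alone) and *Csf1r* (12.12) were among the brightest genes, and neither passed the test (log2 fold changes −0.021 and −0.075), while *Cd68* fell by 0.28 (limma, adjusted p = 0.0145), a call lost without the third array with RANKL alone (adjusted p = 0.0540) or the first with rGDF11 (adjusted p = 0.0552). Of 9 macrophage markers measured, 5 fell, against 9.13% of all genes. The other 4 that fell, named after their values were seen, were *Fcgr1* by 1.41, *Cd14* by 1.06, *Adgre1* by 0.51 and *Itgam* by 0.24 on the log2 scale (limma, adjusted p = 4.06e-05, 3.44e-05, 0.00129 and 0.0331). The call on *Itgam* was lost on leaving out any 1 of the 6 arrays, with an adjusted p of up to 0.108. The mean log2 level of the 9 markers was 11.39 to 11.40 with RANKL alone and 10.97 to 11.04 with rGDF11.

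Some markers of other cells were called as well. Of 7 neutrophil markers 2 rose, with a mean level of 6.48 to 6.57 with RANKL alone and 6.84 to 6.97 with rGDF11, and of 6 stromal markers 4 rose, from 6.24 to 6.44 and to 6.62 to 6.82. Of 5 dendritic cell markers 2 rose, *Itgax* and *Flt3*, with mean levels of 5.50 to 5.62 and 5.82 to 6.13. The calls made up 28.6% of the neutrophil, 66.7% of the stromal and 40% of the dendritic cell markers. Of 5 T cell markers 1 rose, *Cd5*, and of 4 B cell markers 1 fell, *Cd79b*, by 1.19 on the log2 scale. Of 4 erythroid and megakaryocyte markers 1 rose, *Alas2*. Over all genes 7.49% were higher and 9.13% lower, and 1 call among 4 or 5 genes cannot be told from these shares. RMA values do not reach 0 and the table holds no detection calls, so absence of a cell type cannot be read from them. In bulk RNA fewer cells of a type and less RNA per cell cannot be told apart, and the part of these markers in the changes of the NF-κB genes was not tested.

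The steps from the receptor to IKK were followed in a list of 21 genes, of which 18 had a probe set of their own. In it 1 gene rose and 3 fell, leaving 14 that missed the threshold, with a median log2 fold change of 0.04. The calls were 5.56% and 16.7% of the 18 genes, against 7.49% higher and 9.13% lower of all genes. The kinase gene *Ikbke* was 2.06-fold lower, from 8.48 ± 0.045 to 7.44 ± 0.026 (mean ± SD, 3 arrays each; limma adjusted p = 3.44e-05). It encodes IKKε, which together with its relative TBK1 acts on interferon regulatory factors rather than in the classical IKK complex. *Tbk1* fell as well, by 0.39 on the log2 scale (adjusted p = 0.0110 from limma), and so did *Rnf31*, by 0.32 (adjusted p = 0.0149), which encodes the ligase HOIP that builds linear ubiquitin chains. *Rnf31* missed the threshold without the third array with RANKL alone (adjusted p = 0.0587) or the second with rGDF11 (adjusted p = 0.0502).

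Of the classical IKK genes, *Ikbkb* and *Ikbkg* did not pass and *Chuk*, the gene of IKKα, was not analysed here. *Ikbkb*, which encodes the catalytic subunit IKKβ, had a log2 fold change of −0.11 (95% interval −0.26 to 0.044; limma, adjusted p = 0.351). *Ikbkg*, which encodes the scaffold NEMO, had −0.22 (95% interval −0.42 to −0.032; adjusted p = 0.121), and passed among brighter probe sets (adjusted p = 0.0438) and with a trend in the spread (adjusted p = 0.0467). *Map3k14*, which encodes NIK of the alternative route, had −0.094 (95% interval −0.29 to 0.10; adjusted p = 0.544). Upstream of them, the RANK gene *Tnfrsf11a* (0.12) and its adaptor gene *Traf6* (0.11) also did not pass. *Map3k7*, which encodes the kinase TAK1 that activates IKK downstream of both RANK and TGF-β receptors, rose by 0.23, from 9.22 ± 0.038 to 9.45 ± 0.0082 (limma, adjusted p = 0.0345). The call on *Map3k7* was lost on leaving out any 1 of the 6 arrays, with an adjusted p of up to 0.113.

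**Figure D3:**
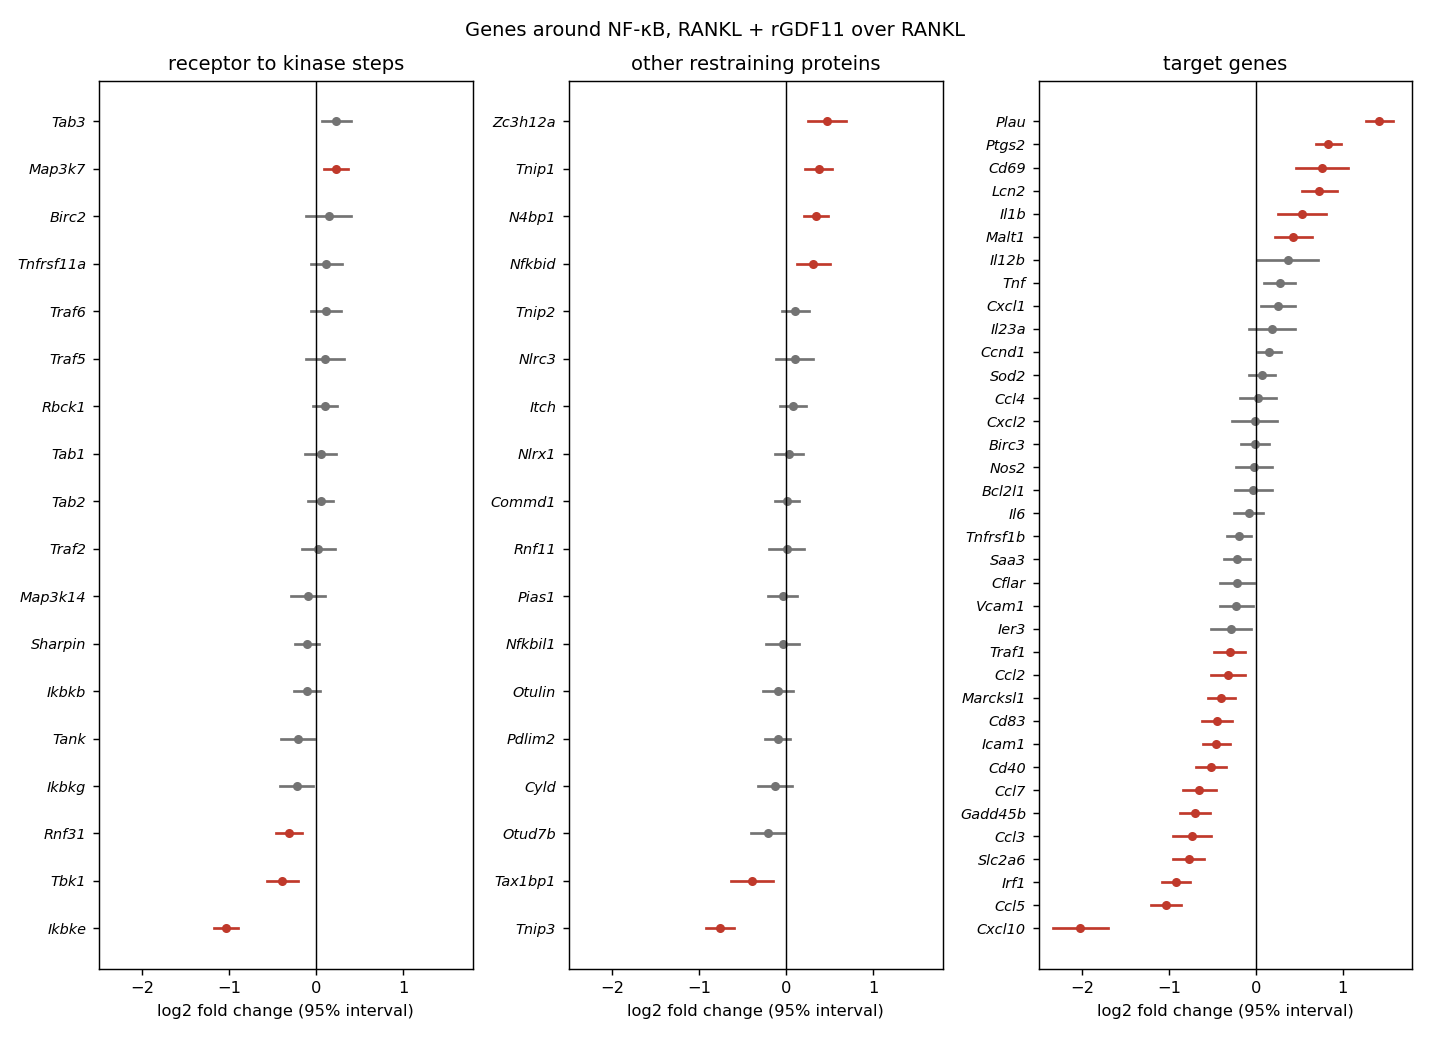
Log2 fold change (RANKL with rGDF11 over RANKL alone, horizontal axis) with 95% confidence intervals of the measured genes from the receptor to the kinases, of other proteins that restrain NF-κB, and of its target genes, from 3 arrays per group; red marks an adjusted p under 0.05. In the first 2 panels 10 genes are red, from *Ikbke* at −1.04 and *Tnip3* at −0.76 to *Zc3h12a* at 0.47, and the target genes spread from −2.02 for *Cxcl10* to 1.42 for *Plau*.

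Of 18 other genes whose products restrain NF-κB, 4 rose, 2 fell and 12 did not pass, with a median log2 fold change of 0.01. The calls were 22.2% and 11.1% of the 18 genes, against 7.49% and 9.13% of all genes. *Tnip3*, which encodes an A20-binding protein, was 1.69-fold lower, from 11.32 ± 0.071 to 10.56 ± 0.064 (mean ± SD, 3 arrays each; limma adjusted p = 0.000254). Its relative *Tnip1*, whose product also binds A20, went the other way and rose 1.30-fold, from 8.07 ± 0.086 to 8.45 ± 0.022 (adjusted p = 0.00738 from limma). *Tnip2*, the other gene of this A20-binding family, had a log2 fold change of 0.10 (95% interval −0.051 to 0.26; limma, adjusted p = 0.381), and *Tnfaip3* itself had 0.017.

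*Zc3h12a*, which encodes the RNase Regnase-1 that degrades inflammatory transcripts, rose 1.38-fold (limma, adjusted p = 0.0130, and 0.0741 by the methods' t-test) and *N4bp1* 1.27-fold (adjusted p = 0.00639). *Nfkbid*, another gene for a nuclear IκB protein, read 7.31, 7.10 and 7.38 with RANKL alone and 7.61, 7.54 and 7.60 with rGDF11, a rise of 1.24-fold (adjusted p = 0.0394). Beside *Nfkbiz* it was the other nuclear IκB gene called, but the call was lost on leaving out any 1 array other than the third with RANKL alone, with an adjusted p of up to 0.123. By the methods' t-test *Nfkbid* was not called (adjusted p = 0.111). *Tax1bp1*, which encodes an adaptor of A20, fell by 0.39 (adjusted p = 0.0400), a call lost on leaving out any 1 array other than the second with rGDF11, with an adjusted p of up to 0.132. For *Tax1bp1* the methods' t-test gave an adjusted p of 0.146.

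Target genes changed in both directions. Of 36 genes known as NF-κB targets in macrophages, 6 rose (16.7%), 13 fell (36.1%) and 17 did not pass. Over all genes 7.49% were higher and 9.13% lower. The targets had a median log2 fold change of −0.14. Their median size of change was 0.35, against 0.072 for the 10 NF-κB genes and 0.12 for all genes. *Plau*, which encodes the protease urokinase, rose 2.67-fold, from 9.85 ± 0.040 to 11.27 ± 0.080 (mean ± SD, 3 arrays each; limma adjusted p = 1.69e-05). *Ptgs2*, the gene of the prostaglandin enzyme cyclooxygenase-2, rose 1.78-fold, and *Cd69* and *Lcn2*, 1.69-fold and 1.66-fold. For *Cd69* the methods' t-test gave an adjusted p of 0.0667, above the threshold.

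The chemokine gene *Cxcl10* fell most, 4.06-fold, from 9.88 ± 0.096 to 7.86 ± 0.28 (limma, adjusted p = 6.45e-05), followed by *Ccl5*, 2.04-fold, *Irf1*, 1.90-fold, and the hexose transporter gene *Slc2a6*, 1.71-fold. With *Nos2* and *Cd40*, they make up 5 of the 36 genes that were marked in the list as also induced by interferon, leaving out *Slc2a6*. Of these 5, 4 fell. Of the other 31, 9 fell and 6 rose, with a median log2 fold change of −0.03. The marking was not exhaustive and the 31 may hold further genes that interferon induces, so the split does not separate interferon targets from the rest. The second probe set of *Irf1*, which is dimmer, read 0.14 (adjusted p = 0.239).

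Of the 5 interleukin and tumour necrosis factor genes among the targets, 1, *Il1b*, passed the test. *Il1b* rose by 0.53 at the low level of 4.27 with RANKL alone (limma, adjusted p = 0.0214), a call lost without the second or the third array with RANKL alone (adjusted p = 0.0658 and 0.0627). That call was also lost with all probe sets tested (limma, adjusted p = 0.0576) and by the methods' t-test (adjusted p = 0.115). *Tnf* read 8.96, 8.88 and 9.07 with RANKL alone and 9.30, 9.28 and 9.14 with rGDF11, without overlap, and its log2 fold change of 0.27 just missed the threshold (limma, adjusted p = 0.0536). It passed in 4 of 15 other settings, among them the one without the third rGDF11 array (adjusted p = 0.0496). *Il12b* (0.37; limma, adjusted p = 0.164) and *Il23a* (0.18; adjusted p = 0.368), named after their values were seen, also lay above 0, with overlap between groups. *Il6* showed −0.084 on the same scale (limma, adjusted p = 0.517) at a level of 2.70, among the dimmest of all genes (percentile 0.682).

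Of the 10 NF-κB genes, the call on *Nfkbiz* was the one that held in all the other settings but the methods' fold change of 1.5. Its adjusted p stayed between 0.000108 and 0.00761 over 15 of them, and its log2 fold change between 0.51 and 0.56. *Rel*, *Nfkbie* and *Bcl3* each passed in 1 or 2 of the 15 and missed in the rest, always in the direction reported. *Rela*, *Relb*, *Nfkb2*, *Nfkbib*, *Tnfaip3* and *Nfkbia* passed in 0 of the 15 by limma and by the methods' t-test, and the first 5 of these took both signs.

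**Figure D4:**
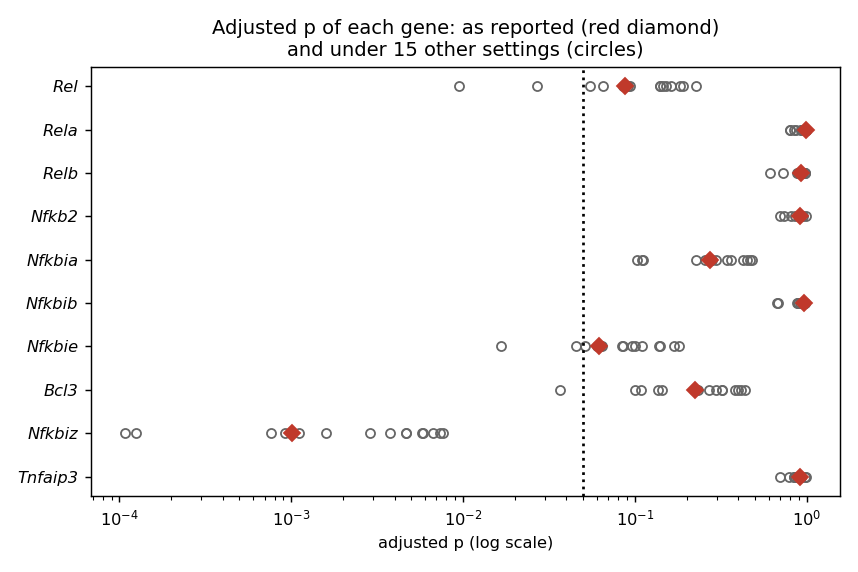
Adjusted p (logarithmic horizontal axis) of the 10 genes as reported (red diamonds) and under 15 other settings of the test, the rows, the normalization and the arrays (circles); the dotted line marks 0.05. All points of *Nfkbiz* lie to the left of the line, from 0.000108 to 0.00761, and *Rel*, *Nfkbie* and *Bcl3* have points on both sides.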

How the data were processed

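The authors hybridised total RNA of 6 samples to Affymetrix Mouse Gene 1.0 ST arrays and made the deposited log2 values by RMA, with Transcriptome Analysis Console 3.0 among the tools named. The deposited log2 values were used unchanged. No source used here names hybridisation batches.

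Of 35556 probe sets, 21789 had 1 gene symbol, 1621 several and 12146 none, and the 23410 with a symbol were tested. Entrez identifiers matched 21698 probe sets to a GRCm38.p6 gene table, with 0 symbols changed. Groups were tested in R 4.3.3 with limma 3.58.1 (lmFit, eBayes, two-sided) at an adjusted p under 0.05, and the fit was tested on simulated data. Array medians lay between 6.11 and 6.18. Arrays have no read depth, and 3 per group limit the precision.

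Members and lists were chosen with earlier results of these data known. All 10 members are named, with up to 4 rises and 4 falls per list, kinase, receptor and cytokine genes fixed by name, and 3 macrophage markers. Of the listed genes, 8 were not matched to a probe set with that symbol alone and were not analysed here.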

Additional observations from a re-analysis of the deposited data

How the results depend on the processing

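Alternatives covered the rows tested, brightness, normalization, the spread, the test, the replicate number, each array left out, several probe sets per gene and the threshold. Calls of the 10 NF-κB genes stayed at 1 higher and 0 lower except that 2 were higher and 1 lower among probe sets brighter than the median, 1 was lower after a further quantile normalization, 2 were higher with a trend in the spread, and 0 were higher at the methods' threshold. On leaving out 1 array, 1 to 2 were higher and 0 lower. From the receptor to the kinases, 1 gene was higher and 3 were lower. These became 2 and 5 among brighter probe sets, 2 and 5 with a trend, 2 higher after quantile normalization, 0 higher over all rows, after median centring and with the replicate block, and 0 and 1 at the methods' threshold. On leaving out 1 array they were 0 to 1 and 2 to 3. Of the other restraining genes, 4 were higher and 2 lower. These became 2 and 1 by the methods' t-test, 3 and 1 over all rows, and 0 and 1 at the methods' threshold, and on leaving out 1 array 3 to 4 and 1 to 2. Of the target genes, 6 were higher and 13 lower. These became 5 and 11 over all rows, 7 and 15 among brighter probe sets and 8 and 14 with a trend. They were 4 and 12 by the methods' t-test, 6 and 12 with the replicate block, and 4 and 7 at the methods' threshold. Without the second array with RANKL alone they were 5 and 11.

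The replicate number gave no clear pairing of the samples, though 3 arrays per group are too few to exclude one. Deviations of same-numbered arrays correlated at 0.0635, 0.335 and −0.000832, and 1 of 3 arrays with RANKL alone correlated best with its own number. With the replicate block the NF-κB genes gave 1 higher and 0 lower, and *Map3k7* (adjusted p = 0.0637), *Il1b* (adjusted p = 0.0548) and *Itgam* (adjusted p = 0.0657) lost their calls, while *Il12b* passed (adjusted p = 0.0386).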
